A study of Mus musculus with 6 samples.

Results

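The mouse Ifit and Ifitm genes were read in 2 endothelial cell lines by Nanopore direct RNA sequencing, in which each native polyadenylated RNA molecule is read as it passes through a pore. The 8 members were the rows of the gene table named Ifit1, Ifit2, Ifit3, Ifit3b, Ifitm1, Ifitm2, Ifitm3 and Ifitm10, out of 34724 genes in all. They were taken by name and not by their values in these libraries. The 4 Ifit genes lie in 1 cluster on chromosome 19. Ifitm1, Ifitm2 and Ifitm3 lie close together on chromosome 7, and Ifitm10 stands apart on the same chromosome.

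The line 2H-11, labelled as tumor endothelial cells, was compared with SVEC4-10, labelled as normal endothelial cells, with 3 libraries each. Both lines carry SV40 transformation, come from the axillary lymph node of the adult C3H/HeJ mouse by the labels, and had no treatment listed. Total RNA was taken up in Trizol and 1 µg went into each library. Each label stands for 1 cell line, so a difference between the lines cannot be told apart from a difference between tumor and normal endothelium. Whether the 3 libraries of each line were made from separate cultures is not in the labels. The p-values therefore measure the spread between libraries only, which may be technical.

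IFIT proteins are built from tetratricopeptide repeats. Among them, IFIT1 binds viral RNA whose cap lacks ribose methylation, which keeps that RNA from being translated. IFITM proteins sit in the plasma membrane and in endosomes and hinder the fusion of virus and cell membranes. Type I interferon switches on most of these genes through the receptor IFNAR, the kinases JAK1 and TYK2 and the complex ISGF3, in which IRF9 contacts DNA. This complex binds the interferon-stimulated response element (ISRE), while interferon gamma acts through the gamma-activated sequence (GAS).

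In 2H-11 the 4 Ifit genes were lower than in SVEC4-10, by between 5.20-fold for Ifit2 and 188-fold for Ifit3. Ifitm3 was 2.56-fold lower in 2H-11 and its neighbour Ifitm2 was 1.81-fold higher. Ifitm1 and Ifitm10 were near the detection limit in both lines. All 6 members that passed the filter on low counts also passed the threshold, 5 of them lower and 1 higher in 2H-11, where 36.2% of all 13187 genes tested passed it, 16.2% lower and 20.1% higher. Of the 5 lower members, Ifit3 and Ifit3b passed the filter through SVEC4-10 alone, which settled their direction beforehand.

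Libraries held between 4105369 and 5825968 counts in 2H-11, and between 3628400 and 16798666 counts in SVEC4-10, where replicate 3 alone gave 68.0% of the counts of the line. Levels are given as counts per 1000000 counts of the library (CPM). A count of 0 over a whole line allows up to 3 counts, which is 0.196 CPM in the 2H-11 line and 0.121 CPM in that of SVEC4-10, and such limits and all intervals cover counting error only. In RNA from a whole culture, fewer cells with a transcript and less transcript per cell cannot be told apart. All 8 endothelial markers looked up (Pecam1, Cdh5, Vwf, Kdr, Tie1, Tek, Emcn and Erg) were under 1 CPM in every library. Vwf, Tie1, Emcn and Erg had no count at all, so the endothelial identity in the labels was not visible in these markers. The leukocyte markers summed to 0 to 1.37 CPM in 2H-11 libraries and 0 to 0.827 CPM in SVEC4-10 libraries, and 4 of the 6 had no count. The fibroblast markers summed to between 280 and 381 CPM in 2H-11 and between 407 and 532 CPM in SVEC4-10. Pdgfra, Pdgfrb and Col1a1 were called higher in 2H-11, Dcn was called lower, and Lum had no count. Of all genes tested, 20.1% were called higher and 16.2% lower. Pdgfrb, with 417 counts in 2H-11 and 0 in SVEC4-10, passed the filter through 2H-11 alone, which settled its direction beforehand. Only 1 library of SVEC4-10 reached the filter level for Pdgfra. The call of Col1a1 was lost without SVEC4-10 replicate 2 (adjusted p = 0.0548, edgeR). The mesothelial markers Msln, Upk3b, Wt1 and Lrrn4 summed to between 40.9 and 44.8 CPM in 2H-11 and between 1675 and 2718 CPM in SVEC4-10. The 3 that passed the filter were called lower in 2H-11. Upk3b, with 10 counts in 2H-11 and 32747 in SVEC4-10, passed it through SVEC4-10 alone, which settled its direction beforehand. Only 1 library of 2H-11 reached the filter level for Wt1. Lrrn4 had 0 counts in 2H-11 and 20 in SVEC4-10. Markers of other cell types thus differed between the lines together with the Ifit genes. Their part in the results was not tested.

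The promoters of 5 members hold the core of the ISRE, and these are printed so that the cores can be compared between members. Each sequence runs 5′ to 3′ on the gene's own strand, from 200 bases before the RefSeq transcript start to 29 bases after it (GRCm38.p6), with the core in capitals. The core was searched on both strands as GAAA, any 2 bases and GAAA again, so it also appears as TTTC, 2 bases and TTTC.
Ifit1: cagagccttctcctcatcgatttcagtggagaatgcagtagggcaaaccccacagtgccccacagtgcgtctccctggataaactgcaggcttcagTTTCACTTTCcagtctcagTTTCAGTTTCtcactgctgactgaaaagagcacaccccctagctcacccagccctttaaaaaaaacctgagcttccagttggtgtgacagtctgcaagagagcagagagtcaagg
Ifit3: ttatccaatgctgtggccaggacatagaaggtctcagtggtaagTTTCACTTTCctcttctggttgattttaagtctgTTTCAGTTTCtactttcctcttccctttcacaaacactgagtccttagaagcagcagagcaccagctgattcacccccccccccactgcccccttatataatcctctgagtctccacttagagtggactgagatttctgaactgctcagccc
Ifit3b: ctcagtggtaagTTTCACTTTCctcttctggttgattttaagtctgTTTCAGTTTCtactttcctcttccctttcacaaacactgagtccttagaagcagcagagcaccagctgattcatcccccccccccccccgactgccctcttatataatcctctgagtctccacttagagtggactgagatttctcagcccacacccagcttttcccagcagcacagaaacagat
Ifitm2: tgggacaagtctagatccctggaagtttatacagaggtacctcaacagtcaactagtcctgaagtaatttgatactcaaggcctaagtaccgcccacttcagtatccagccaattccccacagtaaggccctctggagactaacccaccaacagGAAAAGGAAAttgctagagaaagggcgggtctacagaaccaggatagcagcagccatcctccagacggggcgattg
Ifitm3: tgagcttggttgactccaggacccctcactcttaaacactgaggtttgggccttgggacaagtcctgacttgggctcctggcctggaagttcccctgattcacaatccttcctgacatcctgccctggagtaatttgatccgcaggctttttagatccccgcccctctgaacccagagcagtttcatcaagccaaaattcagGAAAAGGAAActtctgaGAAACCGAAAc
These stretches are chr19:34640689-34640918 on the plus strand for Ifit1, chr19:34583329-34583558 on the plus strand for Ifit3 and chr19:34607757-34607986 on the plus strand for Ifit3b. Those of Ifitm2, chr7:140955932-140956161, and of Ifitm3, chr7:141010715-141010944, are on the minus strand.

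Ifit1, Ifit3 and Ifit3b each held 2 cores, in the same letters and the same order in all 3 genes. Counting from the start base as 0, they began at bases -104 and -85 in Ifit1, at -156 and -122 in Ifit3 and at -188 and -154 in Ifit3b. Ifitm2 held 1 core at base -46. The identical core occurred in Ifitm3 at base 2, just after the start, followed by another at base 19. In the 300-base windows of all promoters in the RefSeq table (250 bases before to 50 after the start), 3.44% of 32851 windows held a core and 0.225% held 2 or more. Counted by gene, 3.99% of 27025 genes held a core in any of their windows. Among members the core was found in 5 of 8, and 4 of 8 had 2 cores.

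No core was found in the windows of Ifit2 (2 starts), Ifitm1 or Ifitm10 (3 starts). The GAS form TTCNNNGAA, which reads the same on both strands, occurred in 8.30% of all windows. By gene it occurred in 9.55% of all genes and in 2 of the 8 members. One match was in Ifit2 at base -241. The other was in Ifitm3 at bases 13 to 21 and overlapped the downstream ISRE core. A match describes the letters in a window and not a bound site, and no match says only that these letters are not in that window.

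**Figure D1:**
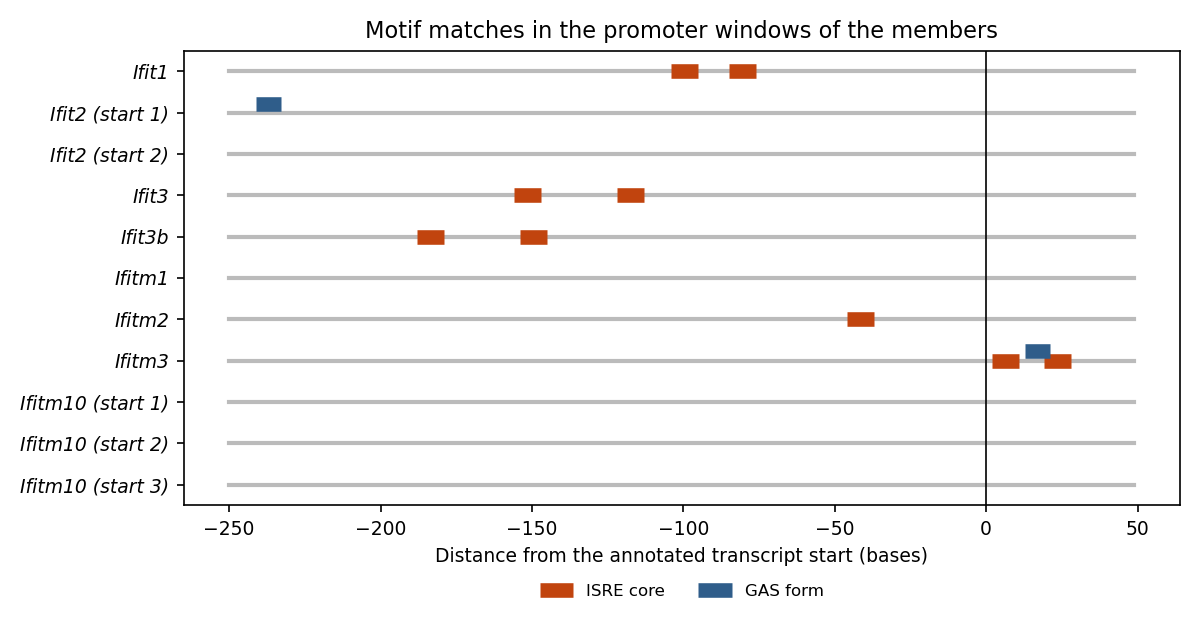
Positions of motif matches in the promoter windows of the 8 members, with the distance from the annotated transcript start in bases on the x axis and 1 line per RefSeq start. Orange marks the ISRE core and blue the GAS form. The 3 genes Ifit1, Ifit3 and Ifit3b have 2 cores each before the start, and in Ifitm3 all matches lie after it.

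Ifit1 encodes the cap-binding member of the family (ENSMUSG00000034459, chromosome 19, 34640871 to 34650009, plus strand, GENCODE M21 on GRCm38, 2 exons). It stood at 7.26, 10.7 and 10.5 CPM in the 2H-11 libraries, against 391, 685 and 494 CPM in those of SVEC4-10. Every 2H-11 library was far below every SVEC4-10 library. The means were 9.48 ± 1.93 CPM in 2H-11 cells, against 523 ± 149 CPM in SVEC4-10 (SD, n = 3 each), resting on 144 and 12451 counts. The log2 fold change, 2H-11 over SVEC4-10, was -5.89 (SE 0.27), a level 59.5-fold lower in 2H-11 (edgeR quasi-likelihood test, adjusted p = 1.38e-11 over all genes tested).

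Ifit3 encodes a partner that, in human cells, binds IFIT1 and steadies it (ENSMUSG00000074896, chromosome 19, 34583531 to 34588731, plus strand, 2 exons). Its levels were 1.49, 0.244 and 0.858 CPM in 2H-11 cells, against 169, 184 and 138 CPM in SVEC4-10. In 2H-11 these were 8, 1 and 5 counts, and the groups were separated by a wide gap. The means were 0.863 ± 0.622 CPM in 2H-11 cells, against 164 ± 23.2 CPM in SVEC4-10 (SD, n = 3 each). With a log2 fold change of -7.56 (SE 0.33, edgeR adjusted p = 6.72e-12) the 188-fold lower level in 2H-11 was the largest difference of the family, and ranked as number 78 from the lowest among all genes tested. The small counts in 2H-11 limit its size, since without 2H-11 replicate 1 the log2 fold change became -8.15.

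Ifit3b is a near copy of Ifit3, found in mouse beside it (ENSMUSG00000062488, chromosome 19, 34607970 to 34613401, plus strand, 2 exons). Only 2, 1 and 0 reads were counted in the 2H-11 libraries (0.372, 0.244 and 0 CPM), against 99, 106 and 431 reads in SVEC4-10 (23.1, 29.2 and 25.7 CPM). The 2H-11 libraries were again all below those of SVEC4-10. From 3 and 636 counts, each over its line's total, the level was 131-fold lower in 2H-11 with a 95% exact counting interval of 44.7 to 639. The edgeR test gave an adjusted p of 1.35e-09. Each of the few reads weighed on this value. Leaving out 2H-11 replicate 1 gave a ratio of 256 (45.7 to 10114), and leaving out 2H-11 replicate 3 gave 81.4 (27.7 to 396). Ifit3 and Ifit3b passed the filter on low counts through SVEC4-10 alone, as no 2H-11 library reached the 2.07 CPM that the filter asked for.

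Ifit2, whose human protein binds AU-rich RNA, had the smallest fold change of the Ifit genes (ENSMUSG00000045932, chromosome 19, 34550694 to 34576419, plus strand, 3 exons). It was at 6.70, 7.06 and 3.95 CPM in 2H-11 cells, against 29.2, 30.0 and 26.3 CPM in SVEC4-10, with no overlap. The means were 5.90 ± 1.70 CPM in 2H-11 cells, against 28.5 ± 1.96 CPM in SVEC4-10 (SD, n = 3 each). On the log2 scale the difference was -2.38 (SE 0.26), or 5.20-fold lower in 2H-11 (edgeR adjusted p = 9.91e-07).

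**Figure D2:**
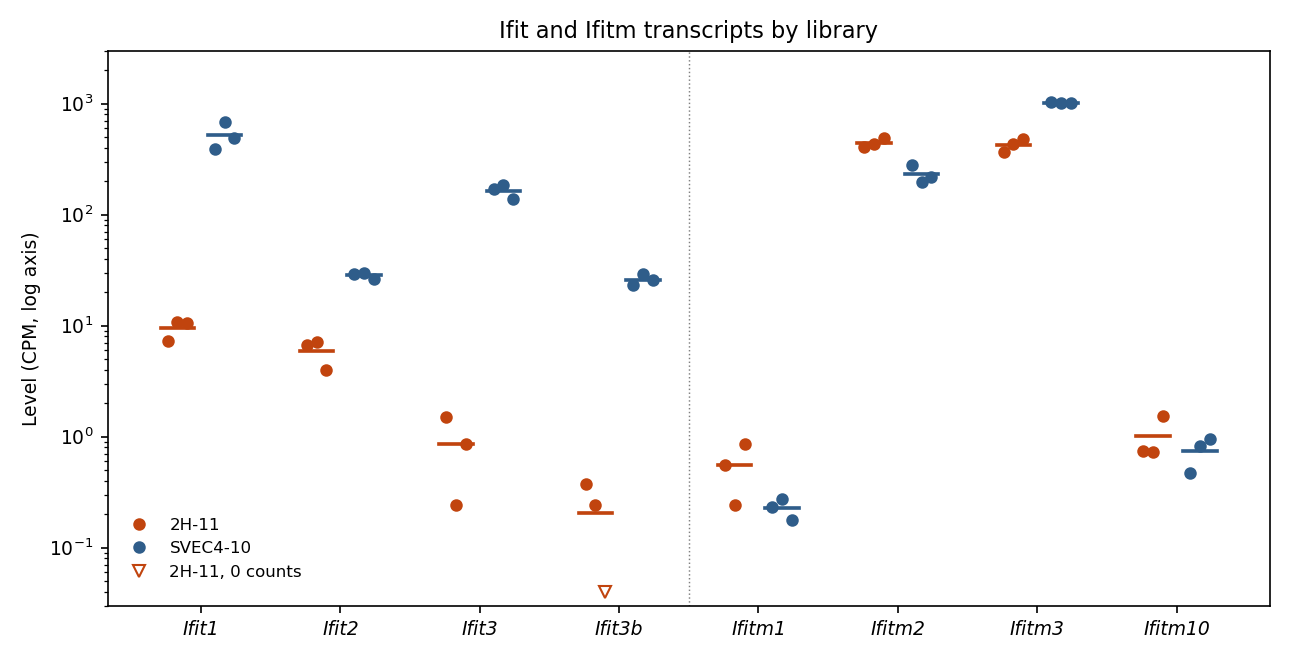
Level of each member in every library, in CPM on a log axis, with 2H-11 in orange left of SVEC4-10 in blue. Points are libraries, bars are means of 3, and the open triangle is a library with 0 counts. The 4 Ifit genes and Ifitm3 are lower in 2H-11, Ifitm2 is higher, and the lines overlap for Ifitm1 and Ifitm10.

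Added together, the 4 Ifit genes came to 15.8, 18.3 and 15.3 CPM in 2H-11 cells, against 613, 928 and 684 CPM in SVEC4-10. The mean sums were 16.5 ± 1.60 CPM in 2H-11 cells, against 742 ± 165 CPM in SVEC4-10 (SD, n = 3 each). The make-up of this sum also differed. Ifit2 gave 42.4%, 38.7% and 25.8% of the Ifit counts in 2H-11, against 4.77%, 3.24% and 3.85% in SVEC4-10, without overlap. Ifit3 gave 9.41%, 1.33% and 5.62% in 2H-11, against 27.7%, 19.8% and 20.2% in SVEC4-10. Ifit1 was the largest component in both lines, with 57.7% ± 11.4 in 2H-11 and 69.9% ± 5.37 in SVEC4-10 (SD, n = 3 each), and its shares overlapped.

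Reads of Ifit3 and Ifit3b may be exchanged, because the coding sequences are alike. By the GENCODE annotation 1198 of 1209 coding bases were identical (99.1%), with a shared run of 329 bases, so the split between these 2 genes is uncertain. Ifit3b took 20%, 50% and 0% of the summed Ifit3 and Ifit3b counts in 2H-11, against 12.0%, 13.7% and 15.6% in SVEC4-10. The 2H-11 shares rest on 10, 2 and 5 counts and enclose those of SVEC4-10. Over all libraries of a line the share was 17.6% in 2H-11 (95% exact interval 3.80 to 43.4) and 14.6% in SVEC4-10 (13.6 to 15.7). A 2-sided exact permutation test over libraries gave p = 0.7, adjusted to 0.7 over the 4 shares tested. Summed before the fit, the pair had a log2 fold change of -7.49, lower in 2H-11. Other pairs of Ifit members were between 60.6% and 66.8% identical over their coding sequences.

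**Figure D3:**
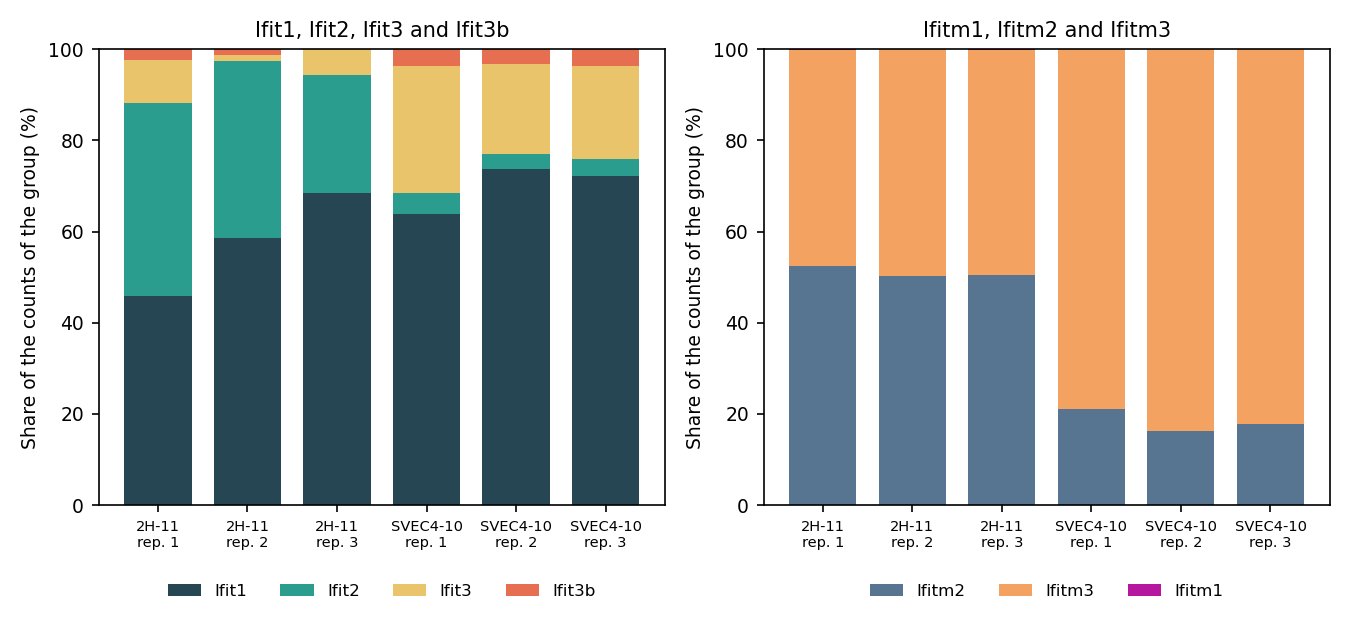
Shares of the counts of each family by gene, in percent, for every library, 2H-11 at the left of each panel and SVEC4-10 at the right. Ifit2 fills more and Ifit3 less of the Ifit counts in 2H-11, and Ifitm2 reaches between 50.3% and 52.4% of the Ifitm1 to Ifitm3 counts in 2H-11 and between 16.2% and 21.1% in SVEC4-10. Ifitm1 is too rare to be visible.

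Ifitm3, the family member best known for blocking influenza virus entry, was the most abundant member in SVEC4-10 (ENSMUSG00000025492, chromosome 7, 141009586 to 141010770, minus strand, 2 exons). Its levels were 366, 432 and 482 CPM in 2H-11 cells, against 1039, 1015 and 1017 CPM in SVEC4-10. Every 2H-11 library was below every SVEC4-10 library, and the SVEC4-10 libraries lay close together. The means were 427 ± 58.0 CPM in 2H-11 cells, against 1024 ± 13.6 CPM in SVEC4-10 (SD, n = 3 each), from 6550 and 25212 counts. The log2 fold change of -1.35 (SE 0.16) corresponds to a level 2.56-fold lower in 2H-11 (edgeR adjusted p = 2.42e-06).

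Ifitm2, a close relative whose human protein acts mainly in endosomes, went the other way (ENSMUSG00000060591, chromosome 7, 140954837 to 140955987, minus strand, 2 exons). It was at 404, 437 and 491 CPM in 2H-11 cells, against 278, 197 and 221 CPM in SVEC4-10. All 2H-11 libraries were above all SVEC4-10 libraries. The means were 444 ± 44.0 CPM in 2H-11 cells, against 232 ± 41.8 CPM in SVEC4-10 (SD, n = 3 each), from 6828 and 5613 counts. With a log2 fold change of 0.85 (SE 0.17) it was 1.81-fold higher in 2H-11 (edgeR adjusted p = 0.000506).

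Within a library, Ifitm2 and Ifitm3 can be set against each other without any scaling. Ifitm2 took 52.4%, 50.3% and 50.4% of the Ifitm1 to Ifitm3 counts in 2H-11, against 21.1%, 16.2% and 17.8% in SVEC4-10. The 2 genes were thus about equal in counts in every 2H-11 library and far from equal in every SVEC4-10 library. The mean share of Ifitm2 was 51% ± 1.19 in 2H-11 and 18.4% ± 2.48 in SVEC4-10 (SD, n = 3 each), a difference of 32.6 percentage points. The 2-sided exact permutation test gave p = 0.1, the smallest value 3 against 3 libraries allow, adjusted to 0.133 over 4 shares. The share of Ifitm3 was 48.9% ± 1.20 in 2H-11 and 81.6% ± 2.48 in SVEC4-10 (SD, n = 3 each), with the same exact p. Expressed as a ratio, there were 1.10, 1.01 and 1.02 Ifitm2 reads per Ifitm3 read in 2H-11, against 0.268, 0.194 and 0.217 in SVEC4-10.

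The coding sequences of Ifitm2 and Ifitm3 were 80.9% identical and shared no run longer than 69 bases, far less alike than Ifit3 and Ifit3b. How reads that match both were counted by the authors is not given in the sources used here. A predicted gene, Gm45717, overlaps Ifitm2 on the same strand by 1101 bases and had 2 counts in all libraries together. Summing Ifitm1, Ifitm2 and Ifitm3 before the fit gave a log2 fold change of -0.62 (edgeR adjusted p = 0.00394), lower in 2H-11. The sums of the 4 Ifitm members were 771, 871 and 975 CPM in 2H-11 cells, against 1318, 1213 and 1239 CPM in SVEC4-10. They averaged 872 ± 102 CPM in 2H-11 cells, against 1257 ± 54.9 CPM in SVEC4-10 (SD, n = 3 each) and did not overlap.

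Ifitm1, a member found mainly at the surface of human cells, was scarcely detected (ENSMUSG00000025491, chromosome 7, 140967221 to 140969825, plus strand). Its levels were 0.558, 0.244 and 0.858 CPM in 2H-11 cells, against 0.234, 0.276 and 0.179 CPM in SVEC4-10, and the lines overlapped. From 9 and 5 counts the ratio of 2H-11 to SVEC4-10 was 2.91 with an exact interval of 0.874 to 11, so a difference was not detectable at this depth. Its share of the Ifitm1 to Ifitm3 counts was 0.0629% ± 0.0312 in 2H-11 and 0.0183% ± 0.00418 in SVEC4-10 (SD, n = 3 each; exact permutation p = 0.1, adjusted 0.133).

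Ifitm10, a distant member without a known antiviral role, was also rare (ENSMUSG00000045777, chromosome 7, 142325837 to 142373753, minus strand). It was at 0.744, 0.731 and 1.54 CPM in 2H-11 cells, against 0.467, 0.827 and 0.952 CPM in SVEC4-10. The lines overlapped, with 16 and 21 counts and a ratio of 1.23 (0.600 to 2.47). Without 2H-11 replicate 3 the level was 1.15-fold lower in 2H-11 (0.471 to 3.21), so that no direction can be given. Neither Ifitm1 nor Ifitm10 passed the filter on low counts, and with no filter neither was called (edgeR adjusted p = 0.406 and 0.876).

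**Figure D4:**
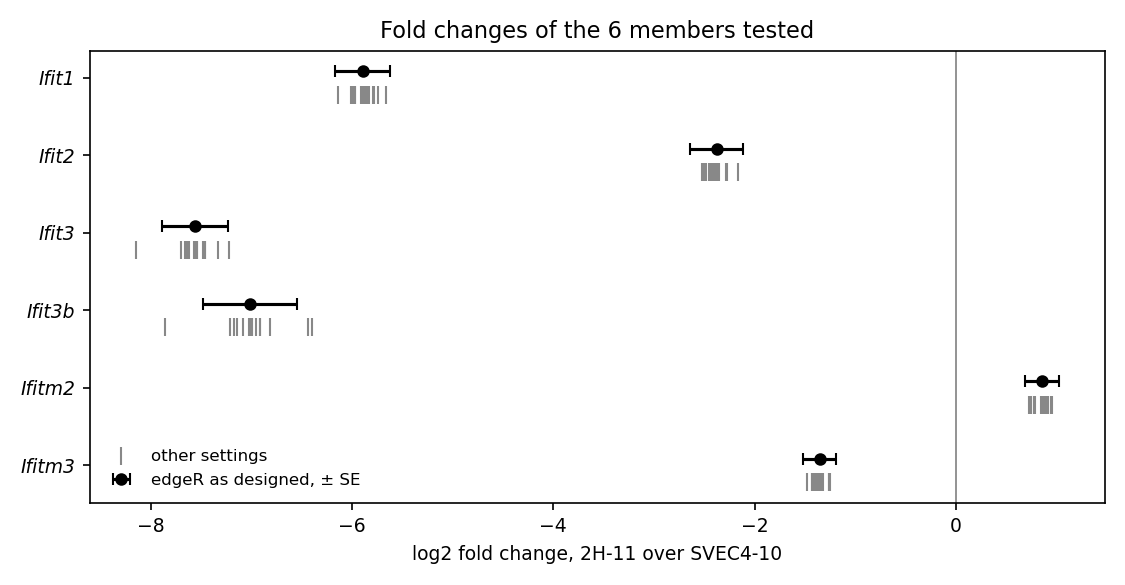
log2 fold change, 2H-11 over SVEC4-10, of the 6 members tested, with SE bars from edgeR and grey ticks for 16 other settings. Ifitm2 lies right of 0 and the other 5 left of it in every setting plotted, and Ifit3 at -7.56 lies farthest from 0.

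Over all 8 members, the groups did not overlap for 6, the same 6 that were tested, where 46.8% of all genes tested had no overlap and 18.8% had none and were lower in 2H-11. The median log2 fold change of the 6 was -4.14, and that of all 13187 genes was 0.00. A log2 fold change under -5 with a passed threshold was found for Ifit1, Ifit3 and Ifit3b, and for 1.25% of all genes tested. The count without overlap, the median and the share under -5 all include Ifit3 and Ifit3b, which entered the test through SVEC4-10 only. For Ifit3 and Ifit3b a lower level without overlap followed from passing the filter that way, so it adds nothing to these counts.

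To order levels between genes, CPM were divided by the length of the longest coding transcript in kilobases. As each read here stands for 1 RNA molecule, CPM already compare molecules between genes. The division raises short transcripts against long ones, so the order per kb is not an order of molecules. In 2H-11 Ifitm2 and Ifitm3 led with 678 and 629 CPM per kb, and their ranges over libraries overlapped. Ifit1 (3.57 CPM per kb) and Ifit2 (1.55 CPM per kb) followed, each separate from its neighbours. Ifitm1 (0.627), Ifit3 (0.495) and Ifitm10 (0.295 CPM per kb) overlapped in turn, and Ifit3b was last at 0.103 CPM per kb. In SVEC4-10 Ifitm3 led with 1510 CPM per kb, ahead of Ifitm2 with 354 and Ifit1 with 197. Next came Ifit3 (93.9), Ifit3b (13.0) and Ifit2 (7.47 CPM per kb), and no neighbours among these 6 overlapped. Only Ifitm1 and Ifitm10, at 0.260 and 0.219 CPM per kb, had overlapping ranges there. By mean CPM without division by length, Ifit1 stood above Ifitm2 in SVEC4-10, and Ifit2 (28.5 CPM) stood above Ifit3b (26.0 CPM). By either measure, Ifit2 stood above Ifit3 and Ifit3b in 2H-11 and below Ifit3 in SVEC4-10. Only per kb was it also below Ifit3b in SVEC4-10.

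The remaining Ifit genes of the locus did not pass the filter on low counts and are given by their counts. Ifit1bl1, a copy of Ifit1 with 77.3% coding identity, had 1, 1 and 1 counts in 2H-11, against 16, 5 and 20 in SVEC4-10. By summed counts it was 8.47-fold lower in 2H-11 (exact interval 2.70 to 42.7). Leaving out single libraries gave between 6.24-fold (1.91 to 32.3), without SVEC4-10 replicate 1, and 13.6-fold (4.05 to 71.0), without SVEC4-10 replicate 3. Ifit1bl2, with 77.0% identity to Ifit1, had 1, 0 and 0 counts in 2H-11, against 10, 11 and 32 in SVEC4-10, a ratio of 32.8 (5.64 to 1321). Without 2H-11 replicate 1, the library with its only read in that line, Ifit1bl2 was at least 7.10-fold lower in 2H-11, and leaving out 2H-11 replicate 3 gave a ratio of 20.3 (3.50 to 818). For both copies the lines did not overlap. With no filter edgeR called both lower in 2H-11 (adjusted p = 0.000171 for Ifit1bl1 and 4.74e-07 for Ifit1bl2), as did DESeq2 (adjusted p = 0.0107 and 0.00112). Ifit1bl2 runs away from Ifit1 on the opposite strand, 128 bases from it, and the promoter windows of the pair share 245 bases with both ISRE cores of Ifit1.

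Ifitm5, known from bone, had 0 counts in 2H-11 and 3 in SVEC4-10, and Ifitm6 had 1 in 2H-11 and 3 in SVEC4-10. The exact intervals of their ratios of 2H-11 to SVEC4-10 reached up to 3.91 and 6.70, so no difference was detectable. Ifitm7 had no count. More distant relatives with the same membrane domain were also scarce, and 5 of the 7 found in the table had no count. Prrt2, a synaptic protein, had 6 counts in each 2H-11 library and 0 in each SVEC4-10 library, and Tmem91 had a single count in SVEC4-10.

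Genes of the type I interferon pathway, from the receptor to ISGF3, were read next, and their part in the Ifit and Ifitm levels was not tested. Irf9, the DNA-binding subunit of ISGF3, averaged 7.93 ± 0.504 CPM in 2H-11 cells, against 85.5 ± 10.9 CPM in SVEC4-10 (SD, n = 3 each; log2 fold change -3.52, edgeR adjusted p = 4.57e-10). Its partner Stat2 was also lower in 2H-11, at -2.78 (edgeR adjusted p = 1.60e-07). The kinase Jak1 was higher in 2H-11 by 0.94 (edgeR adjusted p = 0.00609). Ifnar1, Ifnar2 and Tyk2 did not pass the threshold (edgeR adjusted p of 0.960, 0.913 and 0.640).

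Irf7, a transcription factor that amplifies interferon production, averaged 2.14 ± 0.668 CPM in 2H-11 libraries and 124 ± 24.7 CPM in SVEC4-10 libraries (SD, n = 3 each; log2 fold change -5.95, edgeR adjusted p = 1.33e-11). Irf3, its constitutive relative, was lower by far less (-0.77, edgeR adjusted p = 0.0162), and its call was lost without 2H-11 replicate 1, without 2H-11 replicate 2 and with libraries thinned to the smallest (largest edgeR adjusted p = 0.0611). Irf5 was the third of 5 tested factors called lower (-1.03, edgeR adjusted p = 0.0365), a call lost in 9 of 15 other settings, among them without any single 2H-11 replicate, without SVEC4-10 replicate 1 or 3, and with libraries thinned to the smallest (log2 fold change -0.11, edgeR adjusted p = 0.875). Thinning was a single random draw, and calls of rare genes under it vary with the draw. Over all genes tested, 16.2% were called lower. Among the 21 interferon genes in the table, 20 had no count in any library. Ifnb1, encoding interferon beta, had 0 counts in 2H-11 and 6 in SVEC4-10, and did not pass the filter.

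IFIT1 tells apart caps by their methylation, so the enzymes that make the cap were read as well. Of 6, 2 were lower in 2H-11 and none was higher, a share close to the 36.2% called over all genes tested. Cmtr1, which methylates the ribose of the initial transcribed base, averaged 34.0 ± 4.18 CPM in 2H-11 cells, against 54.5 ± 4.88 CPM in SVEC4-10 (SD, n = 3 each; log2 fold change -0.77, edgeR adjusted p = 0.00366). Cmtr2, which methylates the next ribose, had -0.95 (edgeR adjusted p = 0.0402) and lost its call in 8 of 16 other settings, among them without 2H-11 replicate 2 or 3 and without SVEC4-10 replicate 1 or 2.

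Of 5 genes whose proteins are reported to bind IFIT proteins, 1 was lower and 1 higher in 2H-11, where 36.2% of all genes tested were called. The kinase Tbk1 averaged 25.2 ± 1.24 CPM in 2H-11 cells, against 50.4 ± 3.42 CPM in SVEC4-10 (SD, n = 3 each; log2 fold change -1.10, edgeR adjusted p = 0.000248). Tmem173, encoding the DNA-sensing adaptor STING, averaged 67.2 ± 11.9 CPM in 2H-11 cells, against 38.9 ± 9.75 CPM in SVEC4-10 (SD, n = 3 each; 0.71, edgeR adjusted p = 0.0184). This call was lost without 2H-11 replicate 1, SVEC4-10 replicate 1 or SVEC4-10 replicate 3 (largest adjusted p = 0.148).

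Of 8 genes whose proteins modify or bind IFITM3, 2 were lower and 1 was higher in 2H-11, again close to the 36.2% of all genes. Vcp, an ATPase that handles ubiquitinated proteins, averaged 125 ± 8.50 CPM in 2H-11 cells, against 247 ± 19.5 CPM in SVEC4-10 (SD, n = 3 each; log2 fold change -1.08, edgeR adjusted p = 3.14e-05). Zdhhc20, which adds palmitate to IFITM3, averaged 29.2 ± 6.83 CPM in 2H-11 cells, against 61.2 ± 9.26 CPM in SVEC4-10 (SD, n = 3 each; -1.17, edgeR adjusted p = 0.000360). The demethylase Kdm1a was higher in 2H-11 (0.92, edgeR adjusted p = 0.00715).

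The coding genes next to the members on the chromosome were read for comparison. Within 250 kb of the Ifit cluster, 2 of 5 other coding genes were tested and 1 was lower in 2H-11. This was the death receptor gene Fas, at -1.10 on the log2 scale (edgeR adjusted p = 0.00274), while the lysosomal lipase gene Lipa between Fas and Ifit2 had -0.44 (edgeR adjusted p = 0.142). Around the Ifitm cluster 12 of 29 were tested, of which 1 was lower and 2 were higher in 2H-11. The lower one was Irf7, 244782 bases from the cluster. These shares stand beside 36.2% of all genes tested.

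Of the 4 tested genes nearest to the Ifitm cluster, 1 was called. On the left, Pgghg had a log2 fold change of 0.61 (edgeR adjusted p = 0.231) and the proteasome subunit gene Psmd13 had 0.42 (edgeR adjusted p = 0.0539). Psmd13 passed the threshold in 6 of 16 other settings. On the right, Ptdss2 had 1.01 (edgeR adjusted p = 0.0339), called higher in 2H-11, and the ribonuclease inhibitor gene Rnh1 had -0.16 (edgeR adjusted p = 0.512). The call of Ptdss2 was lost without 2H-11 replicate 3, SVEC4-10 replicate 2 or SVEC4-10 replicate 3, with DESeq2 and with libraries thinned to the smallest. The other gene called higher was Zfp941 (2.22, edgeR adjusted p = 0.00172). Around Ifitm10, 4 of 23 genes were tested, and 1 was higher in 2H-11, the leukocyte actin-binding gene Lsp1 (4.62, edgeR adjusted p = 8.19e-08). Of all genes tested, 20.1% were called higher. In SVEC4-10 Zfp941 averaged 0.867 ± 0.722 CPM and Lsp1 0.387 ± 0.0994 CPM (SD, n = 3 each). Both passed the filter on low counts through 2H-11 alone, which settled their direction beforehand.

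**Figure D5:**
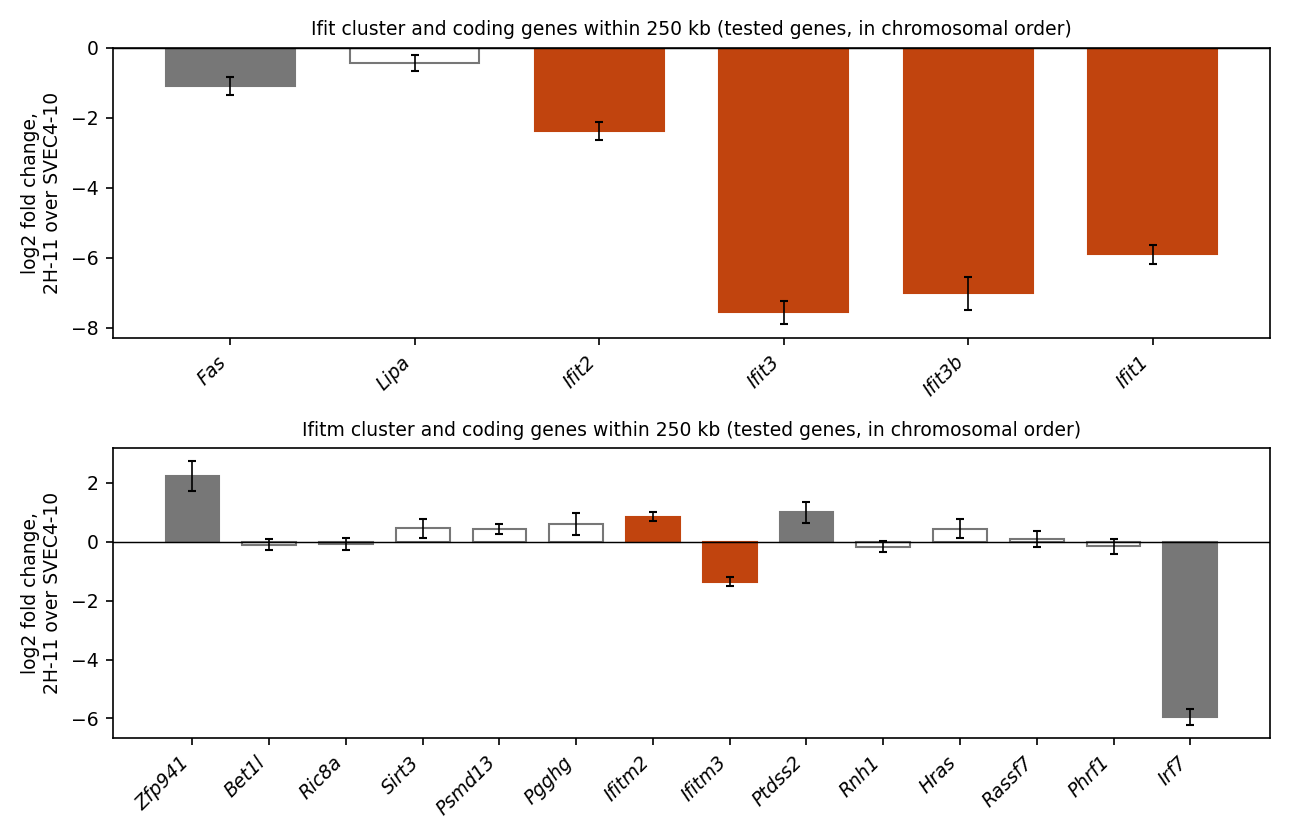
log2 fold change, 2H-11 over SVEC4-10, of the tested members (orange) and the tested coding genes within 250 kb (filled grey where called, open where not) in chromosomal order, with SE bars from edgeR. Lipa, next to Ifit2, is not called at -0.44, and Ifitm2 and Ifitm3 stand side by side with opposite signs.

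Genes with the pattern most like that of a member were found by the Euclidean distance between log2 CPM over the 6 libraries, each gene centred on its own mean. Nearest to Ifit1 were Flrt3 (distance 0.670), Vnn1 (0.759), Mx2 (0.825), Ddx60 (0.849) and Arhgef26 (0.852). Of these, Flrt3, Ddx60 and Arhgef26 had no count in 2H-11, so their distances depend on how 0 is set on the log scale. Nearest to Ifitm3 were Tmsb4x (0.130), Hmgn5 (0.232), Kdm1b (0.274), Pigyl (0.289) and Tmpo (0.295). Distances were smaller for Ifitm3, whose own difference is smaller.

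The authors' deposited table holds fold changes from DESeq2 for the same comparison, positive where 2H-11 is higher. In the authors' deposited table Ifit1 had -5.82, Ifit2 -2.36, Ifit3 -7.24, Ifit3b -6.14 and Ifitm3 -1.39 on the log2 scale. For Ifitm2 the authors' deposited table gave 0.80 with an adjusted p of 4.77E-05. The rare copies Ifit1bl1 and Ifit1bl2 had -2.62 (adjusted p of 0.00279) and -3.54 (adjusted p of 6.87E-05) in the authors' deposited table, and it held no value for Ifitm1 or Ifitm10.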

How the data were processed

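Direct RNA libraries were made with the SQK-RNA002 kit from total RNA, per the labels' protocols. Genome builds mm10 and GRCm38 are named in the submitters' processing notes. Not given in the sources used here are the aligner, the counter, its annotation, its use of strand and any filter. Raw read counts per gene and the same reads as CPM were deposited by the authors in 1 table, beside their own DESeq2 results (a log2 fold change and an adjusted p-value per gene). CPM recomputed from the counts differed from the deposited CPM by at most 4.8e-06. The table had 34724 genes once 13 broken lines without a gene were dropped, 22036 with Ensembl identifiers and 12688 defined by the authors.

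Counts were tested with edgeR 4.0.16 in R 4.3.3 on all 6 libraries: filterByExpr (minimum count 10, minimum total 15), TMM scaling, a quasi-likelihood test with line as the only term, and Benjamini-Hochberg adjustment over the 13187 genes tested, with a threshold of 0.05. Fold changes are 2H-11 over SVEC4-10. The biological coefficient of variation was 20.2%. On simulated data for this comparison with 12767 genes, 8 false calls were made. The share of changes found was 8% at 1.5-fold, 42% at 2-fold, 98% at 4-fold and 100% at 8-fold. Changes were simulated only in genes expected to have over 10 counts in the smallest library. They were put in far fewer genes than were called in the data. The shares describe that setting and do not hold for genes with few counts. A gene with 1 to 3 counts in a line is given as a ratio of summed counts, each over the total of its line, with an exact 95% counting interval. Where a gene with 0 counts is given a bound, it comes from 3 counts over the line or from the upper end of the exact interval. Shares of counts have Clopper-Pearson intervals and 2-sided exact permutation tests over libraries.

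Library totals ran between 3628400 and 16798666 counts, and 20039 to 24286 genes had a count. Gene positions, transcript lengths and coding sequences came from GENCODE M21 on GRCm38, where 22022 of the 22036 Ensembl identifiers were found. Identities are of aligned coding sequences without the stop codon (Biopython 1.88). A planned comparison of proteins was replaced by this. Promoter windows came from RefSeq on GRCm38.p6, where all 8 members were matched, and motifs were searched with no mismatch.

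The members and gene lists were chosen with earlier results of these data known, so their counts describe them and no list was tested. Results of a few list genes are not reported here. Named genes were the members and all other Ifit and Ifitm genes. They also included the 2 genes with the smallest p past the threshold in each pathway list, the 2 nearest tested coding genes on each side of the loci within 250 kb, and the 5 Ensembl genes most like Ifit1 and Ifitm3. Stat2, Jak1, Irf5, Kdm1a, Fas, Zfp941, Lsp1, Irf7 as a neighbour, Prrt2 and Tmem91 complete small counts and were named after their values were seen. Alternatives were DESeq2 1.42.0, limma-voom (limma 3.58.1), 2 other scalings, 2 other filters, robust dispersion, Ensembl genes alone, thinning to the smallest library, summed paralogs, a replicate block and leaving out each library.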

Additional observations from a re-analysis of the deposited data

How the results depend on the processing

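Over 16 alternatives each, the 6 members kept their direction and stayed past the threshold. The log2 fold changes, 2H-11 over SVEC4-10, ran between -6.14 and -5.66 for Ifit1, between -2.52 and -2.16 for Ifit2 and between -8.15 and -7.22 for Ifit3. They ran between -7.86 and -6.40 for Ifit3b, between 0.73 and 0.96 for Ifitm2 and between -1.48 and -1.25 for Ifitm3. The largest adjusted p was 0.00699, for Ifitm2 without SVEC4-10 replicate 3 (edgeR), and 5 members were called lower and 1 higher in every one of these alternatives. Summing Ifitm1, Ifitm2 and Ifitm3 to 1 gene turned the sign found for Ifitm2 (0.85) to -0.62. This follows from adding Ifitm3, which was lower in 2H-11 and more abundant than Ifitm2 in SVEC4-10, but not in 2H-11. With Ensembl genes alone, 1657 genes were called higher in 2H-11, against 2645 with the genes defined by the authors included. The share of Ifit3b in Ifit3 plus Ifit3b, higher by 9.55 percentage points in 2H-11, ranged between -3.79 and 21.2 when single libraries were left out, and was lower in 2H-11 without 2H-11 replicate 2. The counts of genes called ranged between 4134 and 5149 when single libraries were left out. Without a filter 6971 of 26293 genes were called. With library size alone as the scaling, 62.8% of calls were higher in 2H-11, against 55.4% with TMM, and the median of all genes shifted by 0.0965.

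The replicate numbers are not stated to pair the libraries. Deviations of same-numbered libraries correlated at -0.0180, 0.0505 and -0.00256, and those of different-numbered libraries at between -0.0780 and 0.0710. No strong shared deviation was seen, but such correlations cannot tell whether libraries were paired. With a replicate block 4461 genes were called, 2491 higher and 1970 lower in 2H-11. Under this block Ifit1 had -5.86, Ifit2 -2.40, Ifit3 -7.55, Ifit3b -6.99, Ifitm2 0.85 and Ifitm3 -1.37, and no member's call changed.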
